A study of Mus musculus with 6 samples.

Results

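The replication-dependent histone gene clusters were examined as a set of 26 ATAC-seq peaks out of the 42632 peaks of the series. A peak belonged to the set when its midpoint lay in 1 of 3 mm10 windows and within 1 kb of either end of a histone gene. The windows were 21.70 to 23.70 Mb on chromosome 13, 96.20 to 96.30 Mb on chromosome 3 and 58.94 to 58.98 Mb on chromosome 11. Chromosome 13 gave 24 peaks, chromosome 11 gave 2, and chromosome 3 gave 0. The rule itself uses positions and gene names and no measured value. The chromosome 11 genes H2bu2, H2aw and H2bu1-ps counted through their older Hist3 symbols. All peaks were 700 bp wide.

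The series compared open chromatin between LT-HSCs (long-term haematopoietic stem cells) of C57BL/6 mice aged 10 to 16 weeks, left unconfined or squeezed under a low ceiling. The cells were sorted from bone marrow as Lin- Sca1+ cKit+ CD34- Flt3-. Unconfined cells (3 libraries) stayed 16 h in HBSS with serum and antibiotics under low oxygen. Confined cells (3 libraries) spent 13 h in the same medium, 0.5 h attaching to fibronectin-coated glass and 2 h under a coverslip held at 5 µm, and were then detached with a dissociation reagent. Attachment, detachment and confinement therefore cannot be told apart. The design text calls the 3 samples of each group biological replicates without saying whether they came from separate animals, so p-values measure the spread among these samples. Library 1, 2 or 3 of each group carried the same experimental batch number.

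Replication-dependent histone genes make the bulk of the protein that packages newly copied DNA. They are short, lack introns and sit in clusters, so that the core histones H2A, H2B, H3 and H4 and the linker histone H1 can be made together in S phase, and their mRNAs end in a stem-loop in place of a poly(A) tail. Many H2A and H2B genes lie head to head and share 1 stretch of promoter. LT-HSCs are known as mostly resting cells that seldom enter S phase.

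Promoter sequences from RefSeq (GRCm38.p6, the assembly also called mm10) are printed for some genes with a peak, which covers all or part of each. A promoter here runs from 250 bp before the start site to 50 bp after it and reads 5′ to 3′ on the strand of its gene. Capitals mark matches on either strand to TATAAA (a motif placed near many start sites), CCAAT (read by the factor NF-Y), ATTTGCAT (the octamer read by Oct1), AAACACA (a box known from H1 genes) and GGTCCG (the core of an H4 promoter element bound by HINFP). The GGTCCG motif was added after the sequences had been seen. The first 3 are from H2A-H2B pairs, with H2bc8 at chr13:23571150-23571449 (plus strand), H2ac6 at chr13:23683910-23684209 (minus strand) and H2aw at chr11:58954435-58954734 (plus strand). They stand for the kind of promoter with the highest counts.
H2bc8: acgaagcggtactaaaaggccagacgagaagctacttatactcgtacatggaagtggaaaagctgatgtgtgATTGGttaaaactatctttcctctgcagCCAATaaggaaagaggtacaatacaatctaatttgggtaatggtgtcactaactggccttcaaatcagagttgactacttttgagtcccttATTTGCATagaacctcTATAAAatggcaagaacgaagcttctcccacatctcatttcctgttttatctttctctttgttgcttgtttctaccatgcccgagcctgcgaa
H2ac6: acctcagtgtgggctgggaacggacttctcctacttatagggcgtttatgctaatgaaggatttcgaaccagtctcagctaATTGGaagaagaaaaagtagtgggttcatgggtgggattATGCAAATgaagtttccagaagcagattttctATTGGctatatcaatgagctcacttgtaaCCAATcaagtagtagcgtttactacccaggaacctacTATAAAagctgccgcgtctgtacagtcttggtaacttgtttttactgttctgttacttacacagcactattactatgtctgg
H2aw: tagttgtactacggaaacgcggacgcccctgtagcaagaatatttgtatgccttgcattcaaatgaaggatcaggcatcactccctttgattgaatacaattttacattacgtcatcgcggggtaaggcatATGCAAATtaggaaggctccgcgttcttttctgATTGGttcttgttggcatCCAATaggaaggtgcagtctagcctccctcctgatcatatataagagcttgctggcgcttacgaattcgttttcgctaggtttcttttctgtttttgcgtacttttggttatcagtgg
The next belong to the H4 genes H4c8 at chr13:23530794-23531093 (plus strand) and H4c3 at chr13:23698409-23698708 (minus strand), and to the linker gene H1f3 at chr13:23554782-23555081 (plus strand). Each carries a motif not marked in the pair sequences above, GGTCCG in the H4 genes and AAACACA in H1f3. CCAAT is marked in H4c3 and H1f3 too, and TATAAA in H1f3. The peaks at H4c8, H4c3 and H1f3 cover only part of these sequences. All marked motifs of H4c3 and the AAACACA box of H1f3 lie outside the peak.
H4c8: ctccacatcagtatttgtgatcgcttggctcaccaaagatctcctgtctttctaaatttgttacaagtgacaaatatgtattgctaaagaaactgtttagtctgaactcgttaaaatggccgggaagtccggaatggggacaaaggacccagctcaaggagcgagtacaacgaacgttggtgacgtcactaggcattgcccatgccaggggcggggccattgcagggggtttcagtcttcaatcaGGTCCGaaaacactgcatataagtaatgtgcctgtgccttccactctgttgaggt
H4c3: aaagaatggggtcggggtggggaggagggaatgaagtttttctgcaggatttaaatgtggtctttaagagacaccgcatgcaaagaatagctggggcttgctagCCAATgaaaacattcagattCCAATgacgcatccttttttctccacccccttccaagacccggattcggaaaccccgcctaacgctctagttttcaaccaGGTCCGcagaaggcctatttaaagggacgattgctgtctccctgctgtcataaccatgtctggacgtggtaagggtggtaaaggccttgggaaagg
H1f3: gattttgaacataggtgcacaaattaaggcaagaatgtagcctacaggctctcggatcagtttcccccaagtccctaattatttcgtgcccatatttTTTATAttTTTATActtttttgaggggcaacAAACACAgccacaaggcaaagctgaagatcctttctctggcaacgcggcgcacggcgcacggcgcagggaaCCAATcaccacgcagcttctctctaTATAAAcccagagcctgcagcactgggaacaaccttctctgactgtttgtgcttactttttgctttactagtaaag

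The 26 peaks served 32 histone genes, and RefSeq promoters matched 28 of these. CCAAT was present in 23 of the 28 (82.1%), against 37.4% of all 32851 promoters. It was in 8 of 8 H2A, 8 of 8 H2B and 4 of 4 H3 promoters, but in 2 of 7 H4 promoters. TATAAA was found in 16 of 28 (57.1%), against 13.6% of all promoters. The octamer was found in 7 of 28, against 1.74% of all promoters, and those 7 were 4 H2A and 3 H2B promoters. GGTCCG was in 7 of 7 H4 promoters and in 8 of 28 overall (28.6%), against 8.25%. AAACACA was in 2 of 28 (7.14%), H1f3 among them, against 7.18%. The promoters of a head-to-head pair overlap, so these counts are not independent. The 24 matched promoters of histone genes in the windows without a peak held CCAAT in 22 (91.7%), TATAAA in 12, and the octamer, AAACACA and GGTCCG in 3 each (12.5%). The difference between genes with and without a peak was not tested.

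Of 57 histone genes in the windows, 32 had a peak, the pseudogenes H2ac14 and H2bu1-ps among them. The 32 were 1 of 4 H1, 9 of 17 H2A, 10 of 17 H2B, 5 of 9 H3 and 7 of 10 H4 genes. On chromosome 13, 29 of 44 genes had one, all 3 genes of the chromosome 11 window had one, and none of the 10 on chromosome 3 did. A run of 12 neighbouring genes, from H2ac15 to H4bc24 at chr13:21753377-21837530, had none. That run held H1f5, and outside it H1f4 and H1f6, the testis H1, also had none. Histone genes are near-identical copies of one another, and how reads that fit several copies were handled is not given in the sources used here. A gene without a peak, and a low count at a gene with one, are therefore uncertain. H2bc6 was not counted because its annotated ends lay more than 1 kb away, yet a peak at chr13:23585490-23586189 lay 131 bp from its inner start site. That peak held 13, 60 and 61 counts without confinement and 12, 1 and 1 under it. The single peak of the chromosome 3 window lay 37 bp from an end of Fcgr1, an antibody receptor gene, and 23740 bp from the nearest histone gene end.

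Peaks sat close to start sites. Of 24 whose nearest gene has a known start, 18 had their midpoint within 150 bp of it. The 7 peaks of H2A-H2B pairs with a known start were centred 30 to 107 bp before it, in the gap of 173 to 249 bp between the facing genes of all 8 pairs. In contrast, 6 of 7 H4 peaks were centred after the start, with a range of -102 to 341 bp.

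Depth sets what can be seen here. The libraries held 304898, 1229478 and 983863 counts in peaks for unconfined cells and 340922, 221390 and 128257 for confined cells. Levels are given as CPM, the counts of a peak per 1000000 counts in all peaks of its library. The floor, set at 3 counts, stood at 9.84, 2.44 and 3.05 CPM for unconfined cells and at 8.80, 13.6 and 23.4 CPM for confined cells. In confined library 3, 16 of the 26 histone peaks held 3 counts or fewer and 0 held more than 10. Peaks at genes that mark LT-HSCs (11 peaks at 8 of 12 genes, with none at Mecom, Slamf1, Ly6a and Tek) held 0.0213 to 0.0268% of counts in unconfined and 0.0249 to 0.0271% in confined libraries. Cd79a, a B cell gene, had 2, 10 and 12 counts without confinement and 11, 4 and 2 under it, or 8.96 ± 2.91 and 21.98 ± 8.997 CPM (SD, n = 3 each), with all confined libraries above all unconfined ones. That order held at 16.8% of all peaks in the series. The progenitor genes Cd34 and Flt3 held 0.00356 to 0.00656% and 0.00390 to 0.00645%, and Pecam1, the 1 of 4 endothelial or stromal genes with a peak, held 0.00142 to 0.00236% and 0.00156 to 0.00316%. The part of these other cells in the results was not tested.

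In unconfined cells the histone peaks were among the more open peaks of the series. Mean CPM over the 3 libraries ranged from 21.3 to 145 with a median of 55.0, against 27.5 for all 11273 gene-end peaks (within 1 kb of an end of a protein-coding gene) and 16.0 for all peaks. By this mean, 26 of 26 histone peaks lay above the median peak, 16 in the top 10% and 2 in the top 1%. The 2 were the H2A-H2B pairs H2bc4/H2ac6 and H2ac8/H2bc8, and 6 of the 8 highest histone peaks were such pairs. The order of the peaks was much alike between unconfined libraries, with Spearman's rho over the 26 peaks of 0.946, 0.886 and 0.936 as a description.

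In confined cells the same peaks held a smaller share of each library. Without confinement the share was 0.170% (95% Clopper-Pearson interval 0.155 to 0.185), 0.148% (0.142 to 0.155) and 0.158% (0.150 to 0.166) in libraries 1 to 3. Under confinement it was 0.102% (0.0914 to 0.113), 0.0723% (0.0615 to 0.0844) and 0.0632% (0.0502 to 0.0785). The groups did not overlap, and confined library 1 was the highest of its group. The intervals cover counting error only. The mean was 0.158% ± 0.0107 in unconfined and 0.0791% ± 0.0202 in confined cells (SD, n = 3 each), so confined cells had 49.9% of the unconfined share. Within experimental batches 1, 2 and 3 the confined share was 60.0%, 48.8% and 40.1% of the unconfined one. In bulk libraries, fewer cells with an open site and less opening per cell cannot be told apart.

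Gene-end peaks as a whole moved the same way. They held 40.9% ± 2.25 of counts in unconfined and 26.3% ± 4.06 in confined libraries (SD, n = 3 each), which left 64.2% of the unconfined share. The median gene-end peak stood at percentile 71.75, 74.69 and 75.75 of all peaks in unconfined libraries 1 to 3. In confined libraries it stood at 58.28, 37.13 and 36.48. The part of this library-wide difference in the lower histone share was not tested. The histone peaks took 0.412%, 0.384% and 0.366% of the gene-end counts in unconfined libraries 1 to 3. In confined libraries they took 0.329%, 0.302% and 0.263%. These groups did not overlap either, with means of 0.387% ± 0.0232 and 0.298% ± 0.0328 (SD, n = 3 each). No test was made of a score over these peaks.

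**Figure D1:**
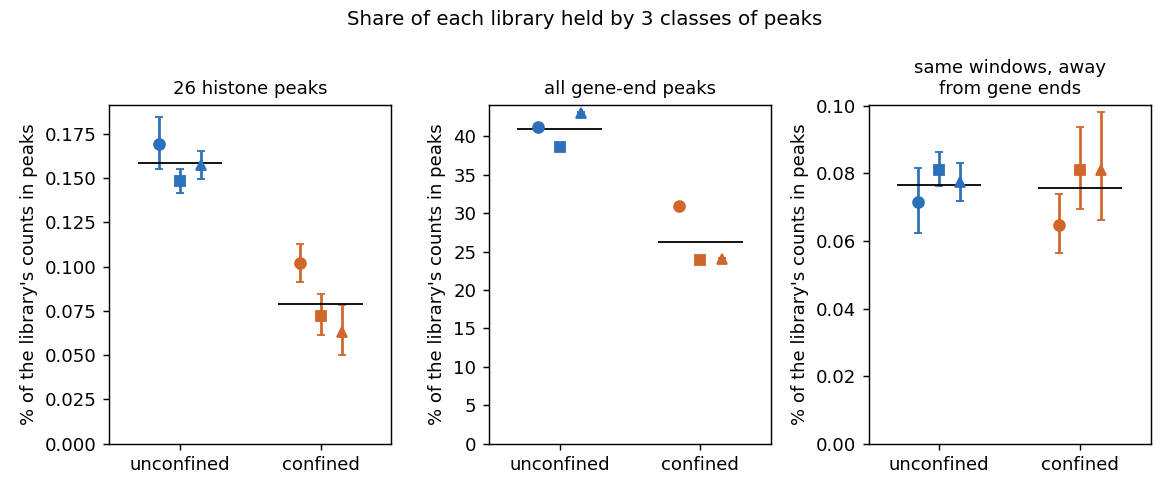
Share of each library's counts (percent, y axis) held by the histone peaks, by all gene-end peaks and by the 38 peaks of the same windows away from gene ends; each point is 1 library with its 95% Clopper-Pearson interval (circle, square and triangle for libraries 1, 2 and 3) and each line a group mean. Confined means are at 49.9%, 64.2% and 98.6% of the unconfined means from left to right.

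The group means of the peaks spanned a smaller range in confined cells, though single libraries did not all do so. The highest mean CPM was 6.82 times the lowest in unconfined cells and 2.99 times in confined cells, where means ran from 18.1 to 54.1 with a median of 29.5. Within single libraries the ratio was 13.7, 5.92 and 13.3 in unconfined libraries, 8.0 in confined library 1 and 5.50 in confined library 2, and the lowest peak of confined library 3 was at 0. The median in confined cells was 22.2 for gene-end peaks and 22.5 for all peaks. Confined library 1 still ranked the 26 peaks much like the unconfined libraries, with rho of 0.650, 0.674 and 0.706. Confined library 2 gave 0.214, 0.153 and 0.0562 and confined library 3 gave -0.0541, -0.0396 and -0.0329. These libraries were also the shallowest, with 160 and 81 counts over all 26 peaks against 347 in confined library 1, and the part of depth in this was not tested.

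Peak by peak, all confined libraries lay below all unconfined ones in CPM at 18 of 26 histone peaks, and 0 peaks showed the opposite. The same held for 13.2% of all peaks and 31.4% of gene-end peaks. These shares, here and where they stand beside histone peaks below, were not matched by level. The median unconfined CPM was 55.0 for histone peaks and 27.5 for gene-end peaks. Taken alone, confined library 1, the deepest of its group, lay below all unconfined libraries at 20 of 26 peaks, against 26.5% of all peaks and 45.8% of gene-end peaks. The confined mean was the lower one at 24 of 26. Within batches 1, 2 and 3 the confined library was lower at 22, 24 and 23 peaks, and in all 3 batches at 21.

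**Figure D2:**
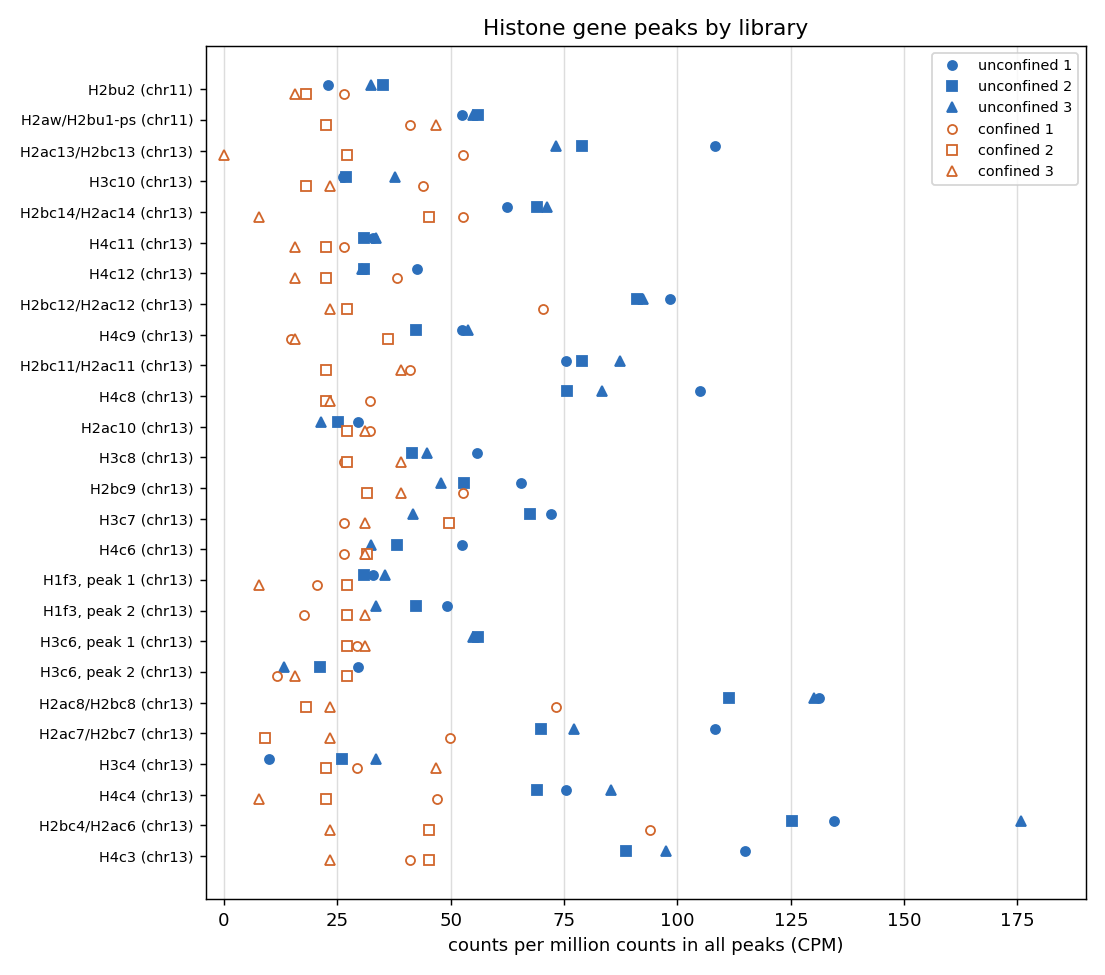
CPM (x axis) of the 26 histone peaks (y axis, in genome order) in each of 6 libraries; filled blue symbols are unconfined and open orange symbols confined libraries, with the symbol's shape giving the library number. The 8 H2A-H2B pairs show no overlap between the groups, while H2ac10 and H3c4 do not show lower confined means.

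No single histone peak passed the test. With edgeR's quasi-likelihood test (TMM scaling, Benjamini-Hochberg adjustment at 0.05), 18 of the 26 peaks had enough counts to be tested. Of these, 0 were called lower, where 2.42% of all 9084 tested peaks (220) were, and 0 were called higher, where 5.79% (526) were. With the experimental batch as a block, 74 peaks of the whole table were lower and 476 higher, and again 0 histone peaks were called. DESeq2 also called 0 histone peaks, and 2 had an unadjusted edgeR p below 0.05. The log2 fold change (confined over unconfined) was negative at 14 and positive at 4, from -0.96 to 0.35, with standard errors of 0.33 to 0.43 and adjusted p from 0.0879 to 0.986. The median was -0.42, against -0.26 for tested gene-end peaks and -0.02 for all tested peaks. With 1 library left out, the histone median was less negative than the gene-end median in 4 of 6 fits (-0.56 against -0.63 without unconfined library 1, -0.28 against -0.42 without unconfined 2, -0.16 against -0.48 without confined 1, and -0.33 against -0.34 without confined 3). Every tested histone peak reached the filter's 31 CPM in all unconfined libraries, 1 did so in all confined libraries, and 10 in at most 1, so the tested peaks were mostly let in by their unconfined level.

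The scaling bears on these values. The fit scaled each library by its counts in the tested peaks and a TMM factor, and tested peaks took up 50.2%, 43.2% and 51.2% of unconfined but 34.8%, 24.2% and 23.6% of confined counts. Scaling by total counts in all peaks moved the median of all tested peaks to -0.68. Counts in tested peaks without TMM gave a median of 0.03, and TMM on the totals of all peaks gave -0.01, both added after the data had been seen, and 0 histone peaks were called under either. With total counts, edgeR called 8 of 18 histone peaks lower, where 25.2% of all tested peaks (2286, against 348 higher) and 35.4% of tested gene-end peaks were. The histone median was then -1.10 and the gene-end median -0.92. Without a filter on low counts, 5 of 26 were called lower, where 4.27% of all peaks and 11.7% of gene-end peaks were, with a median of -0.95 for the histone and -0.58 for the gene-end peaks. The pairs H2ac13/H2bc13, H2ac8/H2bc8 and H2ac7/H2bc7 and the genes H4c8 and H4c4 were called in both.

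Fold changes went with the level of a peak throughout the table, and the histone peaks were read beside gene-end peaks of like level. The 3 level classes below were chosen after the data had been seen. Levels here are mean log2 CPM on the scale of the fit, per counts in tested peaks, which lies above the CPM given elsewhere. At 6.5 to 7.0, the 5 histone peaks had a median log2 fold change of -0.13 and the 1901 gene-end peaks -0.14. At 7.0 to 7.5, the 9 histone peaks had -0.58 and the 1124 gene-end peaks -0.43. At 7.5 to 8.5, the 4 histone peaks had -0.60 and the 624 gene-end peaks -0.77, and edgeR called 14.9% of those gene-end peaks lower.

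**Figure D3:**
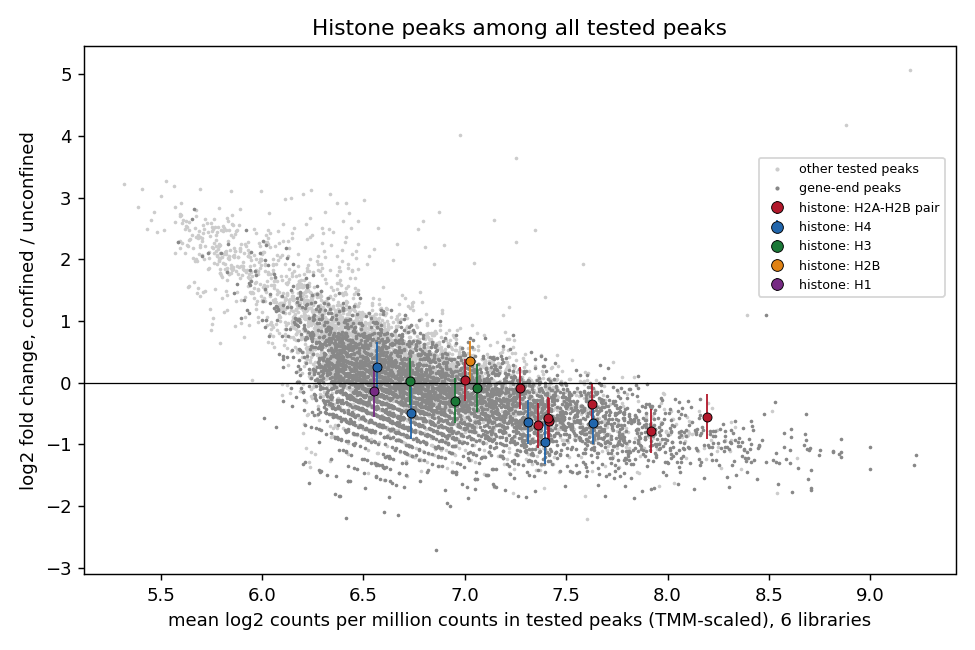
Log2 fold change (confined over unconfined, y axis) against mean log2 CPM on the scale of the fit (per counts in tested peaks, x axis) for the 9084 tested peaks, with gene-end peaks in dark grey and the 18 tested histone peaks in colour by kind with bars of 1 standard error. The histone peaks lie within the cloud of gene-end peaks, from -0.96 at H4c8 to 0.35 at H2bc9.

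H2A and H2B form the dimer that flanks the H3-H4 core of a nucleosome, and the H2A-H2B pairs had the highest levels in unconfined cells. H2ac14, in the pair H2bc14/H2ac14, and H2bu1-ps, in H2aw/H2bu1-ps, are annotated as pseudogenes. The 8 pair peaks held 0.0738% of counts in unconfined and 0.0293% in confined cells, or 39.7% of the unconfined share. Within batches 1, 2 and 3 this was 61.7%, 31.9% and 24.6%. All confined libraries lay below all unconfined ones at 8 of 8 pairs, beside 31.4% of all gene-end peaks, which were not matched to the pairs by level. The mean CPM had a median of 86.0 over the 8 peaks without confinement and 36.0 under it.

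H2bc4/H2ac6 (chr13:23683860-23684559) was the highest histone peak. It had 134.5, 125.3 and 175.8 CPM without confinement and 93.9, 45.2 and 23.4 CPM under it, in the order of libraries 1, 2 and 3, which holds for all such values. Confined library 1 was closest to the unconfined range and confined library 3 farthest, and the groups did not overlap. The means were 145 ± 26.9 and 54.1 ± 36.1 CPM (SD, n = 3 each), and edgeR gave a log2 fold change of -0.55 (SE 0.36, adjusted p = 0.343). Without confined library 1 it was -1.17 (adjusted p = 0.0475). H2ac8/H2bc8 (chr13:23570953-23571652), whose H2bc8 promoter is printed above, had 131, 111 and 130.1 CPM without confinement and 73.3, 18.1 and 23.4 CPM under it. The counts behind the last 2 were 4 and 3, close to the floor. Its log2 fold change was -0.79 (SE 0.36, edgeR adjusted p = 0.154), and without confined library 1 it was -1.80 (adjusted p = 0.00653). H2ac13/H2bc13 had 52.8, 27.1 and 0 CPM in confined libraries, the only one of the 26 peaks listed at 0 in any library, against 73.2 to 108 CPM in unconfined ones.

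The chromosome 11 pair H2aw/H2bu1-ps (chr11:58954294-58954993) was the lowest of the 8 pairs in unconfined cells. It had 52.5, 56.1 and 54.9 CPM without confinement and 41.1, 22.6 and 46.8 CPM under it, with confined library 3 the highest of its group. The means were 54.5 ± 1.85 and 36.8 ± 12.7 CPM (SD, n = 3 each). The log2 fold change of 0.04 (SE 0.35, edgeR adjusted p = 0.964) was the 1 positive value among the pairs. Its sign depended on the scaling, the filter and the libraries used. It was -0.60 with total counts, -0.81 without a filter and -0.47 to -0.008 with 1 library left out. With the replicate block it was 0.11 and with DESeq2 0.099. Its neighbour H2bu2 (chr11:58948483-58949182), an H2B gene, had 22.96, 35.0 and 32.5 CPM without confinement and 26.4, 18.1 and 15.6 CPM under it. Those groups overlapped, and the peak was too low to be tested. Together the 2 chromosome 11 peaks held 67.1% of their unconfined share in confined cells, against 48.9% for the 24 on chromosome 13. The difference between the chromosomes was not tested.

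The H4 genes, all of which encode the same core histone, came next. Their 7 peaks held 0.0423% of counts in unconfined and 0.0187% in confined cells, or 44.3% (47.5%, 54.1% and 31.8% within batches 1, 2 and 3). All confined libraries lay below all unconfined ones at 6 of 7, beside 31.4% of all gene-end peaks. The difference between H4 peaks and pairs was not tested. H4c8 (chr13:23531030-23531729), with GGTCCG at its start site in the sequence above, had 105, 75.6 and 83.3 CPM without confinement and 32.3, 22.6 and 23.4 CPM under it. Confined library 1 was closer to the shallower libraries here than at the 2 pairs above. The means were 88.0 ± 15.2 and 26.1 ± 5.37 CPM (SD, n = 3 each). The log2 fold change of -0.96 (SE 0.36, edgeR adjusted p = 0.0879) was the lowest of the histone peaks. With total counts as scaling it was -1.65 (adjusted p = 0.0102).

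H4c3 (chr13:23697768-23698467) had 115, 88.7 and 97.6 CPM without confinement and 41.1, 45.2 and 23.4 CPM under it, again without overlap. Its log2 fold change was -0.66 (SE 0.34, edgeR adjusted p = 0.227). H4c6 (chr13:23551295-23551994) had the highest log2 fold change of the 5 tested H4 peaks. It had 52.5, 38.2 and 32.5 CPM without confinement and 26.4, 31.6 and 31.2 CPM under it, so that the groups nearly met. Its log2 fold change was 0.25 (SE 0.40, edgeR adjusted p = 0.742) and turned negative with total counts as scaling (-0.40).

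The H3 genes, which encode the partner of H4, differed less in value. Their 6 peaks held 0.0238% and 0.0175% of counts, so that confined cells had 73.7% of the unconfined share. All confined libraries lay below all unconfined ones at 2 of 6 (33.3%), near the 31.4% of all gene-end peaks. The 2 were H3c8 and the first H3c6 peak, and the latter had 55.8, 56.1 and 54.9 CPM without confinement and 29.3, 27.1 and 31.2 CPM under it. The second H3c6 peak, 955 bp from the gene end, was the one nearest the 1 kb limit and held 9, 26 and 13 against 4, 6 and 2 counts. H3c4 went the other way in its means, with 9.84, 26.03 and 33.5 CPM without confinement and 29.3, 22.6 and 46.8 CPM under it, which overlapped. The difference between H3 and the other kinds was not tested, and H3 peaks were also lower in unconfined cells, with a median of 38.8 CPM.

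H1f3, a linker histone gene, had 2 peaks. All confined libraries lay below all unconfined ones at both, beside 31.4% of all gene-end peaks. The 2 H1f3 peaks held 0.00748% and 0.00438% of counts together, or 58.5%. The peak over the start region had 10, 38 and 35 counts without confinement and 7, 6 and 1 under it. The other was centred 1183 bp after the start and 408 bp past the far end of the gene. The H2A and H2B genes with a peak that covered no head-to-head pair were H2ac10, H2bc9 and H2bu2, and at these 3 the groups overlapped. H2bc9 (chr13:23543006-23543705) had 65.6, 52.9 and 47.8 CPM without confinement and 52.8, 31.6 and 39.0 CPM under it. Its log2 fold change of 0.35 (SE 0.33, edgeR adjusted p = 0.538) was the highest of the histone peaks, and it was -0.32 with total counts as scaling. H2ac10 had mean CPM of 25.4 ± 4.09 unconfined and 30.2 ± 2.72 confined (SD, n = 3 each), and together with H3c4 it made up the 2 peaks with a higher confined mean.

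The chromosome 13 peaks fell into 3 stretches, and all had lower confined shares. Confined cells had 54.6% of the unconfined share at the 5 peaks of the first stretch, 43.1% at the 3 peaks of the second and 48.8% at the 16 peaks of the third. Other peaks of the same windows held nearly the same share in both groups. The 8 gene-end peaks of other genes had 102% of their unconfined share and the 38 peaks away from gene ends had 98.6%. All confined libraries lay below all unconfined ones at 0 of the 8, beside 31.4% of all gene-end peaks. The same held at 5 of the 38 (13.2%), beside 13.2% of all peaks. Among those 5 was the peak near the inner start site of the histone gene H2bc6, with mean CPM of 51.2 unconfined and 15.8 confined. The one of these 46 peaks with the highest unconfined mean, 84.2 CPM, had 35.2 CPM in confined cells. These other peaks were also less open to begin with, with median unconfined CPM of 18.0 and 16.1 against 55.0 for the histone peaks.

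**Figure D4:**
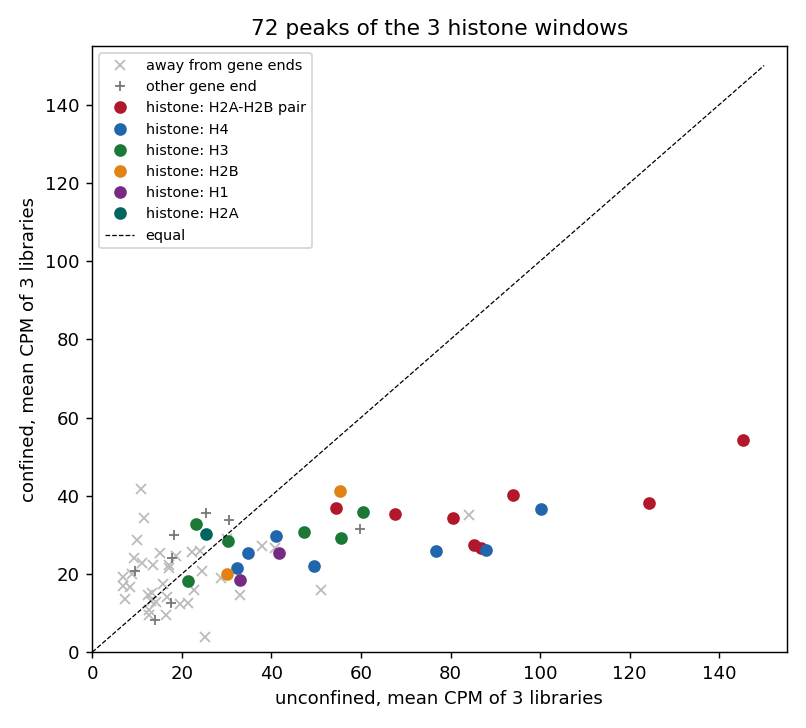
Mean CPM in confined (y axis) against unconfined cells (x axis) for the 72 peaks of the 3 windows, by class, each point being the mean of 3 libraries, with the line of equal values. Histone peaks (26) lie mostly below the line and to the right. The 46 other peaks, the one near the inner start site of H2bc6 among them, cluster mostly at low values on both sides of it.

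The cluster runs on past the window's end at 23.70 Mb, where 9 more histone peaks lay outside the rule. They held 0.0441% of counts in unconfined and 0.0222% in confined cells, or 50.3%, beside 49.9% inside. All confined libraries lay below all unconfined ones at 3 of the 9 (33.3%), however, against 18 of 26 (69.2%) inside and 31.4% of gene-end peaks. The 5 tested ones had a median log2 fold change of -0.22, against -0.42 inside. Among them, edgeR gave -0.85 (adjusted p = 0.127) at the pair H2bc3/H2ac5-ps, -0.81 (adjusted p = 0.18) at the linker gene H1f2 and 0.59 (adjusted p = 0.259) at H4c2.

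Lists of genes that act on or beside histones had medians below the -0.26 of tested gene-end peaks. Their peaks were also higher in unconfined cells, with median CPM of 41.9 to 49.5 against 27.5 for all gene-end peaks. The lists were not matched to gene-end peaks by level. Their peaks were taken within 1 kb of either end of a listed gene, whether or not another gene lay nearer. Of tested gene-end peaks edgeR called 3.8% lower, and of all tested peaks 2.42%. For genes of histone transcription and mRNA processing, 12 of 15 gene-end peaks were tested, 0 were called lower and 0 higher, and the median log2 fold change was -0.43. Npat, the S phase activator of histone transcription, had 25, 104 and 105 counts without confinement and 19, 6 and 2 under it, with a log2 fold change of -0.61 (edgeR adjusted p = 0.257). Slbp, which binds the stem-loop of histone mRNAs, had -0.25. For histone chaperones, 17 of 24 peaks were tested and edgeR called 1 lower and 0 higher, with a median of -0.45. That peak lay 533 bp from an end of Daxx, a chaperone of the replication-independent H3.3. It fell from 77.4 ± 13.9 to 12.8 ± 15.0 CPM (SD, n = 3 each) with a log2 fold change of -1.54 (SE 0.43, adjusted p = 0.0174). Its confined counts were 10, 2 and 0, and the adjusted p was 0.0604 without confined library 2 and 0.0796 with DESeq2. The other Daxx peak, 92 bp from the opposite end of the gene, had -0.85 (edgeR adjusted p = 0.147) and was not called.

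For the list of histone genes taken as replication-independent, 7 of 11 peaks were tested, 0 were called lower and 0 higher, and the median was -0.66. H2aw had been put on this list, but its peak (log2 fold change 0.04) was also a cluster member. The list and the clusters were therefore not separate at that peak. For S phase genes, 15 of 19 peaks were tested and the median was -0.47. Here edgeR called 2 lower and 0 higher, where 3.8% of tested gene-end peaks were called lower. The 2 were Ccna2, which encodes cyclin A2, at -1.48 (SE 0.39, adjusted p = 0.0128), and Cdc25a, a phosphatase that switches on cyclin-dependent kinases, at -1.27 (SE 0.40, adjusted p = 0.0363). The Ccna2 peak lay 944 bp from a gene end and the Cdc25a peak 58 bp. The Cdc25a call was lost with the batch number as a block (adjusted p = 0.109), with DESeq2 (0.145), and without unconfined library 3 (0.0916) or confined library 2 (0.0737), while Ccna2 kept its call in these 4 fits. The groups did not overlap at 9 of 15, 11 of 24, 7 of 11 and 14 of 19 peaks of the 4 lists in turn, with confined cells below, beside 31.4% of all gene-end peaks.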

How the data were processed

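Bulk ATAC-seq reads of 6 libraries had been counted by the authors, who deposited 1 table of raw counts per peak with the coordinates of the peaks. The mm10 build, featureCounts, SAMtools 1.14 and R 4.2.0 are named per the submitters' processing notes. For the aligner, peak caller, duplicate removal and transposase shift, nothing is given in the sources used here. Peaks were joined to RefSeq gene ends (GRCm38.p6). The test was edgeR 4.0.16 under R 4.3.3 (quasi-likelihood; filterByExpr, about 31 CPM in 3 libraries; TMM; group as the only term), adjusted over all 9084 tested peaks, after a test on simulated data. CPM of peaks use the total counts in all peaks, and fold changes counts in tested peaks with TMM factors. Intervals came from SciPy 1.17.1 under Python 3.11.15. Peaks named with full values were the 3 with the highest mean CPM in each window and the 3 tested ones with the smallest p in each direction; others named were chosen after their values were seen. The members and lists were chosen with earlier results of these data known. The pairing by number comes from the experimental batch label; deviations from group means correlated at r = -0.00122, 0.0122 and -0.064 within pairs and -0.132 to 0.132 otherwise. Alternatives were total-count scaling, no filter, a mean count of at least 10, a replicate block, DESeq2 1.42.0, each library left out, confined library 1 alone, a gene-end distance of 500 bp and, added after seeing the data, 2 more scalings. Other lineage markers are not reported here.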

Additional observations from a re-analysis of the deposited data

How the results depend on the processing

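Few counts limit these results: 128257 to 340922 per confined library, which left most histone peaks near the floor in confined library 3. The share difference kept its direction in all alternatives tried, at -0.0794 percentage points, -0.0791 within 500 bp, and -0.0907 to -0.0714 with 1 library left out; within gene-end counts it was -0.0893. Over all tested peaks, 526 were higher and 220 lower; the counts were 348 and 2286 with total counts, 573 and 581 at a mean count of 10 or more, 448 and 75 with DESeq2, and 3 and 7 with confined library 1 alone. Without a filter 1821 were lower. Leaving out 1 library gave 250 to 1696 higher and 76 to 788 lower.

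Histone peaks called lower were 8 with total counts, 5 without a filter, 1 of 26 (H4c8; 2.96% of all peaks and 5.63% of gene-end peaks) at a mean count of 10 or more, and 0 to 3 with 1 library left out: 3 of 21 without confined 1 (H2ac8/H2bc8, H2ac7/H2bc7 and H2bc4/H2ac6; 7.42% and 11.9%), and H4c8 alone of 25 without unconfined 1 (4.79% and 9.47%) or confined 3 (4.31% and 7.54%). The median log2 fold change was -1.10 with total counts, -0.95 without a filter, -0.88 with confined library 1 alone and -0.59 to -0.16 with 1 library left out (gene-end peaks -0.63 to -0.34). With the replicate block, for the pairing by batch, 476 of all peaks were higher and 74 lower, the histone median was -0.45 with 0 called; among the named peaks it changed the call of Cdc25a alone (-1.21). The filters change which peaks are tested; the cause of the other changes was not tested.

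Reversals were found at 4 named peaks. H2aw/H2bu1-ps (0.04) was -0.60 with total counts, -0.81 without a filter, -0.29 at a mean count of 10 or more, -0.63 with confined library 1 alone, and -0.47 to -0.008 with 1 library left out. H2bc9 (0.35) was -0.32, -0.55 and -0.23 with total counts, no filter and confined library 1 alone, and -0.083 to 0.23 with 1 library left out. H4c6 (0.25) was -0.40, -0.62, -0.082 and -0.75 with total counts, no filter, a mean count of 10 or more and confined library 1 alone. With 1 library left out it ranged from -0.15 to 0.52 and was negative without unconfined 1 (-0.14), unconfined 3 (-0.10), confined 2 (-0.15) or confined 3 (-0.00). H4c2 (0.59), beyond the window, was -0.09, -0.32 and -0.14 with total counts, no filter and confined library 1 alone. Of 209 alternative values at named peaks, those of the gene lists included, 158 kept direction and side of the threshold, 17 newly passed it, 9 no longer did and 25 reversed.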
